A study of Mus musculus with 99 samples.

Results

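Gastrocnemius, the large calf muscle that extends the ankle, was compared with quadriceps, the thigh muscle group that extends the knee, in sedentary wild-type male C57BL/6 mice at 10 months of age. The comparison used 20 of the 97 libraries with counts in the series, 10 from each muscle, chosen by the tissue, age and treatment in the sample labels and not by any measured value. The other libraries came from spinal cord and from mice of 18 months, sedentary or exercised. Mice were perfused with saline, tissues were frozen and extracted with Trizol, and polyadenylated RNA was made into TruSeq v2 libraries. Every library carries a number between 1.1 and 3.3 in its title, and each number occurs once in each muscle, so the libraries were compared as 10 pairs. The labels do not say that a number marks an animal, nor that the samples of a group came from separate animals. The p-values therefore measure the spread between these samples.

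The limb muscles of a mouse share a contractile programme but differ in where along the limb they form, in their mix of fibre types and in the tissue that lies between the fibres. Positional identity is carried largely by Hox transcription factors, which lie in clusters where gene order follows the order of expression along the body and limb axis, and by T-box factors. Fibres are classed by their myosin heavy chain, from slow (Myh7) through fast oxidative (Myh2) and intermediate (Myh1) to fast glycolytic (Myh4).

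Total counts ran from 30.6 to 45.0 M per library in gastrocnemius and from 32.9 to 40.3 M in quadriceps. Both tissues had the genes that define skeletal muscle: Acta1, the skeletal muscle actin, stood at 35072 to 55422 TPM in gastrocnemius and 34572 to 48579 TPM in quadriceps, against at most 337 TPM in the 10-month spinal cord. The neuronal gene Snap25 stayed at or under 1.78 TPM in gastrocnemius and 2.03 TPM in quadriceps. Numbers 3.1, 2.2 and 3.2 each held a library unlike others of its muscle. In number 3.1 both muscles deviated: the atrophy ubiquitin ligase gene Fbxo32 was at 3296 CPM in gastrocnemius 3.1, where the other 9 libraries ranged from 290 to 519 CPM, and at 4378 CPM in quadriceps 3.1, where the others ranged from 314 to 514 CPM. The lipid synthesis gene Scd1 was at 7.70 CPM in gastrocnemius 3.1 and 10.5 CPM in quadriceps 3.1, each below the other 9 of its muscle. Gastrocnemius 2.2 had the lowest mitochondrial share of counts, 7.15%, and its deviation from the mean of its muscle correlated with gene length at -0.517, across genes, which are not independent replicates. Quadriceps 3.2 had the highest mitochondrial share, 18.2%. Many results are therefore also given without number 3.1 or without number 2.2. Where such values are not given, the counts of called genes may still differ.

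Of 14372 genes tested, 3110 differed between the muscles at an adjusted p under 0.05 (edgeR quasi-likelihood test, paired by number), 21.6% of those tested. Of these, 1703 were higher in gastrocnemius (11.8%) and 1407 were lower (9.79%). Most of the differences were small: the median size of a called change was 0.31 on the log2 scale, 2305 of the 3110 were under 0.5, and 177 (1.23% of genes tested) reached at least 1, which is a doubling, 113 of them higher in gastrocnemius. The median over all genes tested was 0.003. Leaving out number 2.2 raised the count to 5859 (40.7%, 20.7% higher and 20.1% lower), leaving out number 3.1 lowered it to 2760 (19.2%, 10.7% higher and 8.52% lower), and without the pairing 928 genes passed (6.46%), 577 higher (4.01%) and 351 lower (2.44%), all of which were among the 3110. Of the 177 larger changes, 170 passed without the pairing, and the 176 still tested without 3.1, like the 176 still tested without 2.2, were each called again with the same sign.

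**Figure D1:**
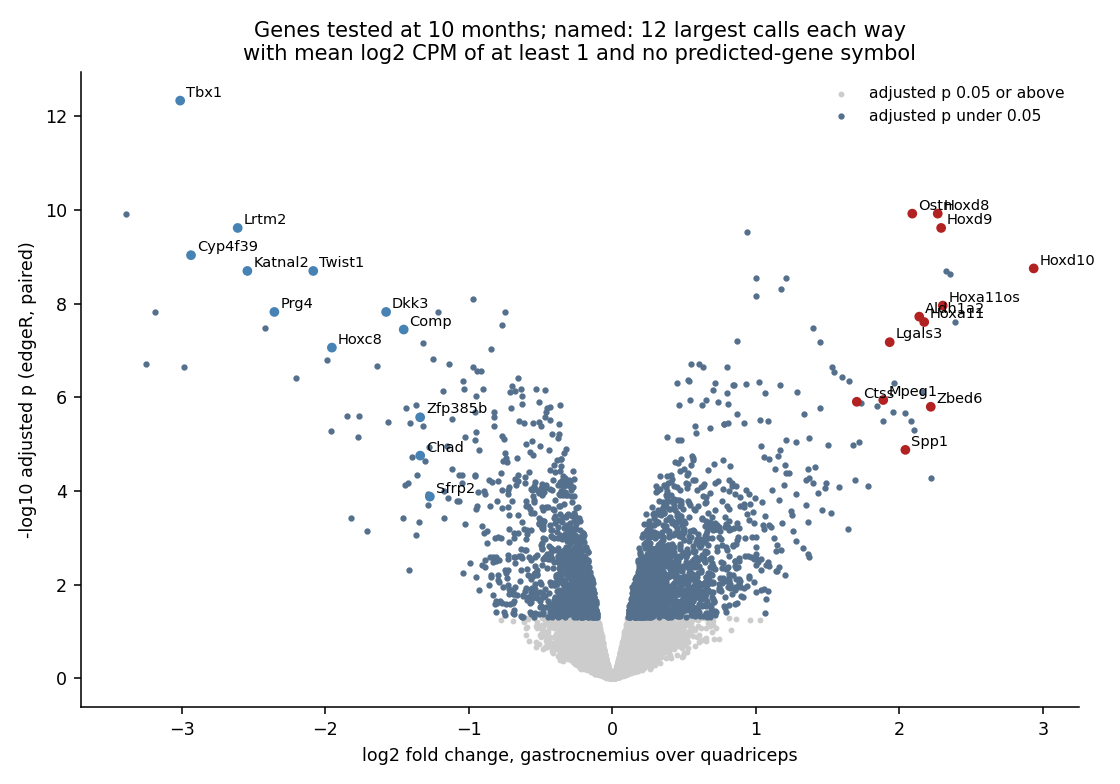
Each point is 1 of the 14372 genes tested, with the log2 fold change of gastrocnemius over quadriceps on the horizontal axis and -log10 of the adjusted p on the vertical axis; named points are the 12 largest called changes in each direction among genes whose mean log2 CPM reached 1. Hoxd10 lies farthest to the right of the named genes and Tbx1 farthest to the left, and most called genes lie within 0.5 of the centre.

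Hox genes were among the largest rises in gastrocnemius. Of the 39 Hox genes, 30 passed the filter on low counts, and of these 10 were higher and 8 lower in gastrocnemius (background 11.8% and 9.79%). The counts were 9 and 6 without the pairing (background 4.01% and 2.44%). A gene passes the filter when enough libraries of either muscle have it, and the 9 untested genes had at most 13 counts in any library. All 5 tested HoxD genes, the end genes Hoxa11 and Hoxa13 of the HoxA cluster and Hoxc11 were higher in gastrocnemius. The middle HoxC genes from Hoxc5 to Hoxc10 and Hoxb2 were lower. In 7 Hox genes every gastrocnemius library lay above every quadriceps library, and in 1 every one lay below, where 0.299% and 0.362% of all genes tested did so.

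The promoters of 5 of the Hox genes that were higher in gastrocnemius, and of Tbx1, which was lower, are shown because they are positional genes with log2 differences of over 2 between the muscles. Each stretch runs from 250 bases before to 50 bases after the gene's start, in GRCm38.p6 from RefSeq. Capitals mark matches to TAAT, the core letters that homeodomain proteins contact, TGACAG, a motif of their Meis cofactors, or CAGCTG, an E box, on either strand. Matches on opposite strands may overlap.
Hoxd10 promoter, chr2:74691641-74691940, plus strand: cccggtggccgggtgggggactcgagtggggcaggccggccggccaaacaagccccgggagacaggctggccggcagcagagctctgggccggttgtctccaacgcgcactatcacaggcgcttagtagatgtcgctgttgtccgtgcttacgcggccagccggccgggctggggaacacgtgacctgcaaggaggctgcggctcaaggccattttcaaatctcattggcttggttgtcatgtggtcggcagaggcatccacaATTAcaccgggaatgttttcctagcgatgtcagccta
Hoxd9 promoter, chr2:74697513-74697812, plus strand: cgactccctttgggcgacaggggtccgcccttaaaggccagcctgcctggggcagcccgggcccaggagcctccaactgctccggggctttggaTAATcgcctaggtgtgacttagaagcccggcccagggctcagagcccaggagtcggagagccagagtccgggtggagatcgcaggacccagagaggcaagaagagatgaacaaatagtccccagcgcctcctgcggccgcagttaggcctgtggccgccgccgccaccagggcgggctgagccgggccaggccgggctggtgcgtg
Hoxd8 promoter, chr2:74704365-74704664, plus strand: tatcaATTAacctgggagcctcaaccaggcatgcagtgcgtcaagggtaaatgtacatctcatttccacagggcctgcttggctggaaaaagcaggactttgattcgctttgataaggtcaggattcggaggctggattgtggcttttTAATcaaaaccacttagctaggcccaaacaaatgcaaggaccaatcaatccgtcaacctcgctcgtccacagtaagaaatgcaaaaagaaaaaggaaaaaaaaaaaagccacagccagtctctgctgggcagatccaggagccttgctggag
Hoxa11 promoter, chr6:52245761-52246060, minus strand: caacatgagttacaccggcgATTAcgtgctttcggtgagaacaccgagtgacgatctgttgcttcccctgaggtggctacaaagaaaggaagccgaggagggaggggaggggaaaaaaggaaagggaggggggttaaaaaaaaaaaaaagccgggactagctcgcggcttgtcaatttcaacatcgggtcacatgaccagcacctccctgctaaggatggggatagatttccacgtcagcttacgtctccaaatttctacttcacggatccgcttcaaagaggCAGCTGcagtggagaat
Hoxa13 promoter, chr6:52260831-52261130, minus strand: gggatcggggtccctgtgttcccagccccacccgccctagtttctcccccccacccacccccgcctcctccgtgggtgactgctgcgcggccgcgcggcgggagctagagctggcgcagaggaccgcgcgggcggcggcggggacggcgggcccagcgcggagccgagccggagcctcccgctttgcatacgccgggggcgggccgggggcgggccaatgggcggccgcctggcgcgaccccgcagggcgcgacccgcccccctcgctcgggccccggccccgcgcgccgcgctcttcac
Tbx1 promoter (the earlier listed of 2 start sites), chr16:18588850-18589149, minus strand: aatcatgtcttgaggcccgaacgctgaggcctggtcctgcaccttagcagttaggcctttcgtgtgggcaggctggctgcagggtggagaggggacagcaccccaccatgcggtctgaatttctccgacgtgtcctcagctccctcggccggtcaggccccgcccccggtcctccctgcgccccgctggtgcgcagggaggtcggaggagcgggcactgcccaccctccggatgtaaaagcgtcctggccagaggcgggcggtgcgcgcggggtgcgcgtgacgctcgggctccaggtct

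TAAT occurred 1 time in the Hoxd10, Hoxd9 and Hoxa11 windows and 2 times in the Hoxd8 window, and CAGCTG occurred 1 time in the Hoxa11 window. The Hoxa13 and Tbx1 windows held none of these letters, and no window held TGACAG. Of 32851 RefSeq promoters of this length, 58% held TAAT, 19.2% TGACAG and 16.3% CAGCTG. Base composition differed widely among genes that moved in the same direction: the GC content was 81.0% with 45 CpG sites in the Hoxa13 window and 46.7% with 6 CpG sites in the Hoxd8 window, and the Tbx1 window had 69.0% and 26. The median over all promoters was 52.7% and 7.

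In the HoxD cluster the difference was largest at Hoxd10, a homeobox gene active in the hindlimb bud (Entrez 15430, chromosome 2, 74691924 to 74695105, plus strand, GENCODE M21 on GRCm38). Hoxd10 had a lowest of 5.11, a median of 6.28 and a highest of 7.69 CPM in gastrocnemius, against 0.295, 0.819 and 1.64 CPM in quadriceps. The muscles did not overlap, and the log2 fold change was 2.94 ± 0.15 (SE, adjusted p = 1.77e-09, higher in 10 of 10 pairs). Its neighbours Hoxd9 and Hoxd8 were 2.29 and 2.27 log2 higher, and Hoxd8 was the most abundant of the cluster per length, at 49.5 TPM in gastrocnemius and 9.58 TPM in quadriceps on average. Hoxd8 had a lowest of 42.0, a median of 44.2 and a highest of 65.0 CPM in gastrocnemius, against 5.36, 9.81 and 12.2 CPM in quadriceps. The gap between the muscles again exceeded the spread within each, although gastrocnemius 2.2 was the highest library by a wide margin.

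Farther towards the early end of the cluster, Hoxd4 and Hoxd3 were also higher, by 0.70 and 1.88, at low levels: Hoxd3 had a median of 0.777 CPM in gastrocnemius and 0.199 CPM in quadriceps. Hoxd3 and Hoxd4 share 53.1% and 39.1% of their exon bases with Gm28230 on the same strand, so reads may have been split between them. At the other end, Hoxd11 and Hoxd12, the next genes of the cluster, had 6 and 0 counts in all gastrocnemius libraries together and 2 and 0 in quadriceps. Hoxd13, the last gene, ran the other way: it had no count in any gastrocnemius library and 18 counts over the quadriceps libraries, with at least 1 count in 9 of 10. The nearest tested genes outside the cluster, Lnpk on one side and Mtx2 on the other, did not pass, with log2 fold changes of 0.02 ± 0.06 (SE, adjusted p = 0.851) and -0.06 ± 0.05 (adjusted p = 0.377).

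**Figure D2:**
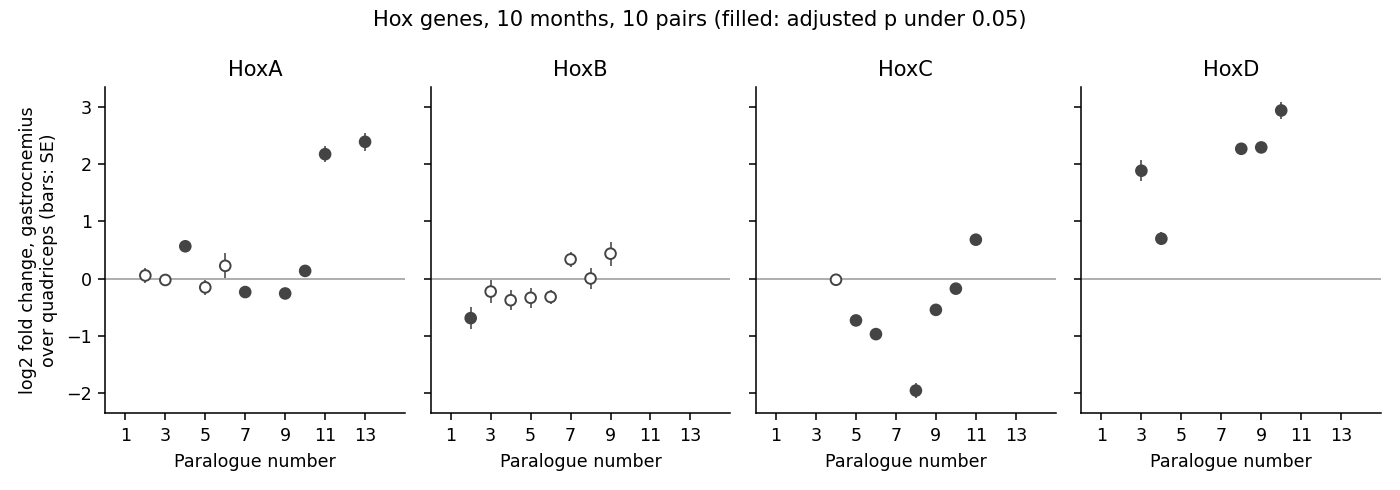
Each panel shows 1 Hox cluster, with the paralogue number on the horizontal axis and the log2 fold change of gastrocnemius over quadriceps with its standard error on the vertical axis, for the 30 Hox genes tested; filled points passed an adjusted p under 0.05. The 5 HoxD points lie above 0, HoxC dips to -1.96 at Hoxc8, and HoxA stays near 0 up to Hoxa10 apart from Hoxa4 and then reaches 2.17 and 2.39 at Hoxa11 and Hoxa13.

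The HoxA cluster split along its length. Hoxa11, which patterns the middle segment of the limb, had a lowest of 3.11, a median of 3.60 and a highest of 4.13 CPM in gastrocnemius, against 0.413, 0.723 and 1.22 CPM in quadriceps, without overlap. It was 2.17 ± 0.14 log2 higher in gastrocnemius (SE, adjusted p = 2.47e-08), and Hoxa13, which patterns the foot and hand, was 2.39 ± 0.15 higher (adjusted p = 2.47e-08). The antisense RNA Hoxa11os rose as well, by 2.3 on the log2 scale, but it shares 800 exon bases with Hoxa11 on the opposite strand. Whether counting used strand is not given, so the rises of both cannot be told apart.

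The genes on the near side of Hoxa11 differed far less. Hoxa10 had a median of 17.9 CPM in gastrocnemius and 15.9 CPM in quadriceps, a log2 difference of 0.13 ± 0.045 that passed narrowly (SE, adjusted p = 0.0445) and was lost in 11 of 20 alternatives, among them the fit without the pairing (adjusted p = 0.158). Hoxa9 and Hoxa7 fell by 0.26 and 0.23, and Hoxa4 rose by 0.56. Skap2, the nearest tested gene on one side of the HoxA cluster, fell by 0.38 (adjusted p = 9.82e-04), and Hibadh, the nearest on the other, fell by 0.20 (adjusted p = 7.91e-04).

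HoxC genes showed a reversal within the cluster. Hoxc8, a gene of the mid-trunk level of the body axis (chromosome 15, 102990607 to 102994111, plus strand), had a lowest of 0.598, a median of 0.868 and a highest of 1.83 CPM in gastrocnemius, against 2.59, 3.41 and 4.95 CPM in quadriceps. No gastrocnemius library reached the lowest quadriceps library, and the log2 fold change was -1.96 ± 0.14 (SE, adjusted p = 8.66e-08). Hoxc6, Hoxc5 and Hoxc9 fell by 0.97, 0.73 and 0.55. Hoxc10 was the most abundant Hox gene of the 30 per length, at 118 TPM in gastrocnemius and 122 TPM in quadriceps, and differed by -0.18 ± 0.051 (adjusted p = 0.0218, lost without the pairing at 0.06). Hoxc11 was higher by 0.68 ± 0.070 (adjusted p = 4.40e-06), and so was Hotair, a noncoding RNA transcribed from the same cluster next to it, by 1.85 ± 0.17 (adjusted p = 1.52e-06). In the HoxB cluster, 1 of 8 tested genes passed, where 21.6% of all genes tested did. This gene, Hoxb2, fell by 0.69, at levels under 1 CPM in every library.

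Beyond Hox genes, 33 of 49 listed limb patterning factors were tested, with a median log2 fold change of -0.071. Of these, 5 were higher and 11 lower in gastrocnemius (background 11.8% and 9.79%), and 4 and 9 without the pairing (background 4.01% and 2.44%). The strongest was Tbx1, a T-box factor of pharyngeal and head muscle development (Entrez 21380, chromosome 16, 18580979 to 18590671, minus strand). Tbx1 had a lowest of 3.89, a median of 4.70 and a highest of 8.18 CPM in gastrocnemius, against 29.4, 38.3 and 74.0 CPM in quadriceps. The highest gastrocnemius library lay far below the lowest quadriceps library, and number 3.1 was the highest of each muscle. The log2 fold change was -3.01 ± 0.077 (SE), with the smallest adjusted p of all genes tested, 4.62e-13.

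Tbx4 and Tbx5 are the T-box factors that distinguish hindlimb from forelimb in the embryo. Tbx4, the hindlimb factor, was higher in gastrocnemius, with a median of 3.08 CPM in gastrocnemius and 1.97 CPM in quadriceps (log2 fold change 0.67 ± 0.10, SE, adjusted p = 3.00e-04). Tbx5, the forelimb factor, did not pass the filter, and its counts ran from 0 to 4 per gastrocnemius library against 7 to 37 per quadriceps library, 11 and 232 counts in all. The muscles did not overlap, and in a fit with no filter, which called 6.03% of 26535 genes lower, the log2 fold change was -4.36 ± 0.34 (SE, adjusted p = 1.45e-17). Pitx1, another hindlimb factor, was low in both, with 61 counts over the gastrocnemius libraries and 112 over the quadriceps libraries (log2 fold change -0.97 ± 0.27 in the unfiltered fit, adjusted p = 0.0075).

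Pitx3, which acts in differentiating muscle, fell by 0.77 and was lower in gastrocnemius in 10 of 10 pairs. Tbx15, a factor of fast glycolytic fibres, fell by 0.28 (adjusted p = 1.75e-04), a call lost without the pairing (adjusted p = 0.0752). Six2, a homeobox gene expressed in limb connective tissue, rose by 0.66, and Eya4, a cofactor gene of the same pathway, rose by 0.40. Osr2, a zinc finger factor of limb connective tissue, Zic1, another zinc finger factor, and Alx4, a homeobox gene of the anterior limb bud, fell by 0.96, 1.28 and 0.89. Aldh1a2, the enzyme that makes retinoic acid, had a lowest of 5.25, a median of 6.48 and a highest of 8.80 CPM in gastrocnemius, against 0.447, 1.47 and 2.54 CPM in quadriceps. Its ranges did not overlap, and it was 2.14 ± 0.13 higher (SE, adjusted p = 1.89e-08). Twist1, a mesenchymal basic helix-loop-helix factor, fell by 2.08, with a median of 0.845 CPM in gastrocnemius and 3.60 CPM in quadriceps.

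Among the other genes with the largest changes were Cyp4f39, a fatty acid hydroxylase, which had a lowest of 0.876, a median of 2.31 and a highest of 3.67 CPM in gastrocnemius, against 11.5, 17.7 and 24.9 CPM in quadriceps. Lrtm2, a leucine-rich repeat membrane protein, and Katnal2, related to the microtubule-severing katanins, fell by 2.61 and 2.54. Each of these 3 genes was lower in gastrocnemius in 10 of 10 pairs and without overlap. Zbed6, a transcription factor that represses Igf2 in muscle, was 2.22 ± 0.21 higher (SE, adjusted p = 1.59e-06), with a median of 17.0 CPM in gastrocnemius and 3.35 CPM in quadriceps. All 5007 of its exon bases lie within those of Gm38394 on the same strand, so its count may be shared, and gastrocnemius 2.2 was at 2.66 CPM, inside the quadriceps range.

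**Figure D3:**
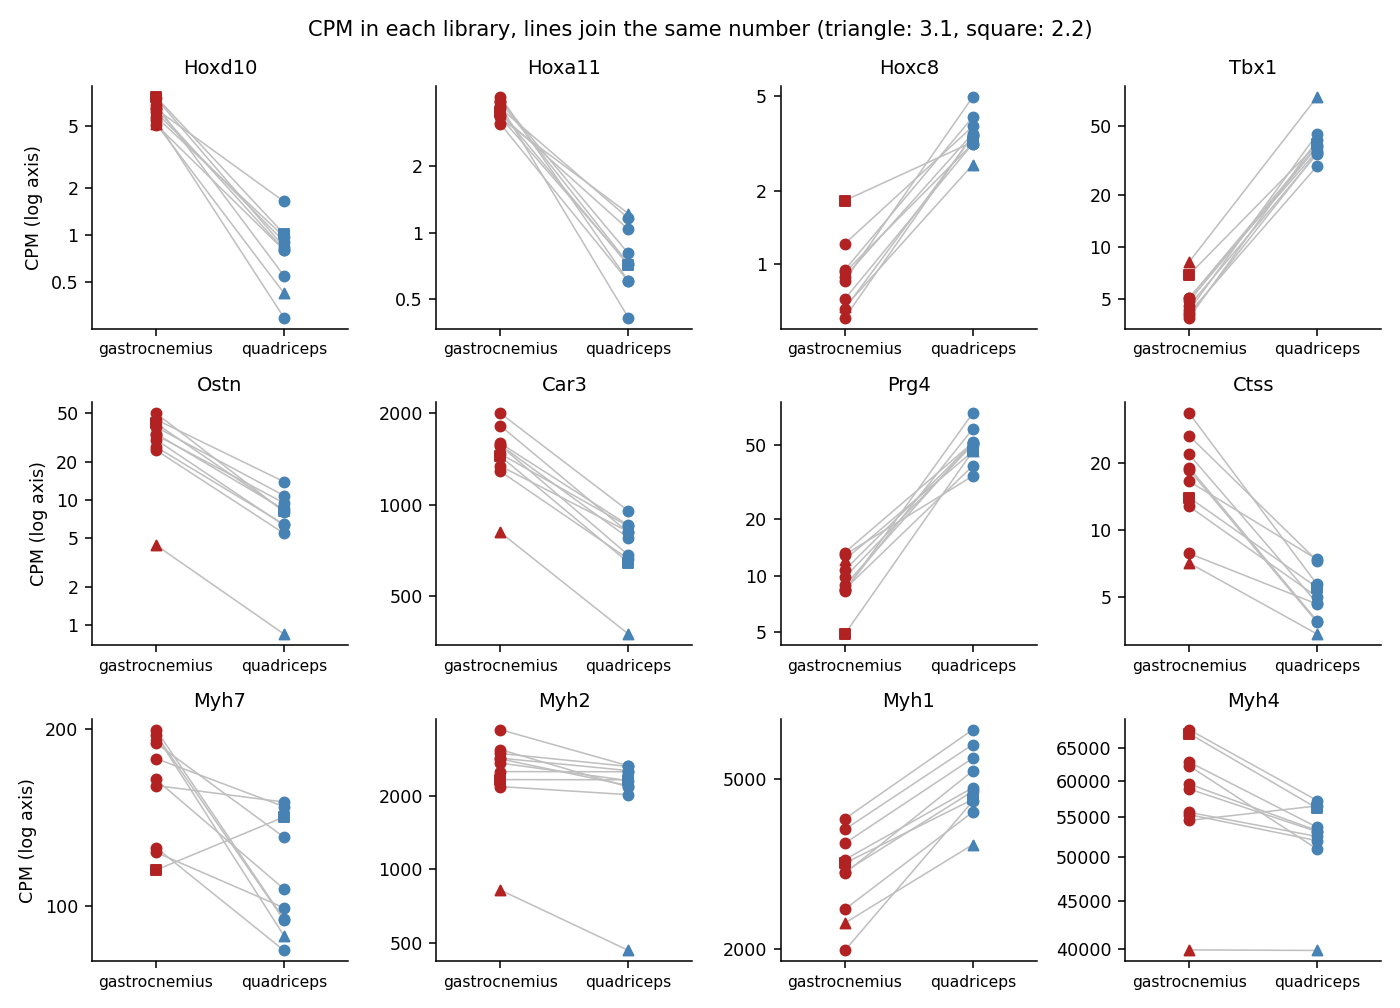
CPM of 12 genes in each of the 20 libraries on log axes, gastrocnemius left and quadriceps right, with lines joining libraries of the same number; triangles are number 3.1 and squares number 2.2. Hoxd10 and Hoxa11 are higher and Hoxc8, Tbx1 and Prg4 lower in gastrocnemius in each pair, and Ostn, Car3 and Myh2 fall to their lowest values in number 3.1 of both muscles and gastrocnemius is still the higher library of that pair.

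Genes of the slow fibre programme were modestly higher in gastrocnemius. Of 20 tested, 10 were higher and 2 lower (background 11.8% and 9.79%), with a median of 0.25. Without the pairing 3 higher and 1 lower remained past the threshold (background 4.01% and 2.44%). Without number 3.1, 8 were higher and 2 lower (background 10.7% and 8.52%). Without number 2.2, 12 were higher and 2 lower (background 20.7% and 20.1%). The slow myosin heavy chain Myh7 had a lowest of 115, a median of 171 and a highest of 199 CPM in gastrocnemius, against 84.2, 103 and 150.2 CPM in quadriceps. The ranges overlapped, and the log2 fold change was 0.53 ± 0.12 (SE, adjusted p = 0.00386, higher in 9 of 10 pairs). The slow troponins Tnnt1 and Tnni1 and the slow myosin light chain Myl2 rose by 0.33, 0.45 and 0.56, and none of these 3 passed without the pairing (adjusted p = 0.143, 0.0925 and 0.114). The slow troponin C gene Tnnc1 had a log2 fold change of 0.35 ± 0.12 that did not pass (adjusted p = 0.0514).

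The largest rises in this list were in a pair of stretch-linked genes. Csrp3, a Z-disc protein of stretch signalling, rose by 0.79 ± 0.13 (SE, adjusted p = 5.09e-04), and Fhl2, a LIM domain protein of the sarcomere and nucleus, rose by 1.09 ± 0.13 (adjusted p = 2.03e-05) with no overlap between the muscles. Myom3, an M-band protein, rose by 0.48. Mybpc1, the slow myosin-binding protein C, went the other way and fell by 0.41 (adjusted p = 2.43e-04), with a median of 1164 CPM in gastrocnemius and 1548 CPM in quadriceps. The sarcoplasmic calcium pump of slow fibres, Atp2a2, rose by 0.29 and that of fast fibres, Atp2a1, fell by 0.20, but each call was lost in 7 of the 10 fits that left out 1 number.

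Among fast myosins the clearest difference was in Myh1, the intermediate fast chain, which had a lowest of 1982, a median of 3099.9 and a highest of 4026 CPM in gastrocnemius, against 3504, 4714 and 6502 CPM in quadriceps. It fell by 0.70 ± 0.06 (SE, adjusted p = 5.77e-07) and was lower in gastrocnemius in 10 of 10 pairs, although the ranges overlapped. Myh2, the fast oxidative chain, rose by 0.29 ± 0.072 (adjusted p = 0.0103), a call lost without the pairing (adjusted p = 0.63). Myh4, the fast glycolytic chain, had a log2 fold change of 0.15 ± 0.058 that did not pass (adjusted p = 0.084).

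As a share of the summed TPM of these 4 adult chains, Myh4 made up 87.4%, 90.9% and 92.4% (lowest, median and highest) in gastrocnemius and 86.0%, 88.1% and 90.8% in quadriceps, and was higher in gastrocnemius in 10 of 10 pairs. The Myh1 share was 3.08%, 5.02% and 6.46% in gastrocnemius and 7.09%, 8.01% and 9.90% in quadriceps, with no overlap. Each of these shares had an exact paired permutation p of 0.00195, the smallest that 10 pairs allow, and 0.00814 when adjusted over 25 library measures. The shares of the 4 chains add up to the whole in each library, so the results for Myh4 and Myh1 are not independent. The Myh7 share was at most 0.43% in any library. These genes are close copies of each other, so reads that fit several of them may have been divided unevenly.

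The fast partners of the slow thin filament genes did not pass: Tnnt3, Tnni2 and Tnnc2 had log2 fold changes of -0.023 ± 0.082, -0.065 ± 0.095 and -0.015 ± 0.091 (SE, adjusted p = 0.868, 0.656 and 0.924). Their direction flipped between settings, and gastrocnemius 2.2 was the highest library in all 3. Without number 2.2, Tnni2 passed as lower (log2 fold change -0.159, adjusted p = 0.032), and with a gene length slope Tnnc2 passed as higher (0.139, adjusted p = 0.0179). Of 14 tested genes of fast glycolytic fibres, none was higher and 3 were lower, with a median of -0.055 (background 11.8% and 9.79%). Without number 2.2 there were 6 lower, where 20.1% of all genes were. Without number 3.1, or without the pairing, 1 was lower (background 8.52% and 2.44%). Of 10 genes of muscle identity, such as Acta1 and Ckm, none passed. Without number 2.2, 2 were higher and 1 lower, where 20.7% and 20.1% of all genes were.

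Myosins that adult limb fibres express at low levels differed in both directions. The embryonic chain Myh3 had a lowest of 3.28, a median of 4.24 and a highest of 7.33 CPM in gastrocnemius, against 1.42, 2.60 and 2.86 CPM in quadriceps. It rose by 1.03 ± 0.10 (SE, adjusted p = 2.97e-06) without overlap between the muscles, and the embryonic light chain Myl4 rose by 0.77, also without overlap. Myh6, the alpha-cardiac chain that in limb muscle is found in spindle fibres, and Myh13, the extraocular chain, fell by 1.12 and 0.77. Of 8 tested genes of muscle spindles, the stretch sensors within muscle, 4 were lower, Myh6 among them, and 1 was higher (background 9.79% and 11.8%). Fewer cells or fibres of a type and less RNA in each cannot be told apart in whole-muscle RNA, here and below.

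**Figure D4:**
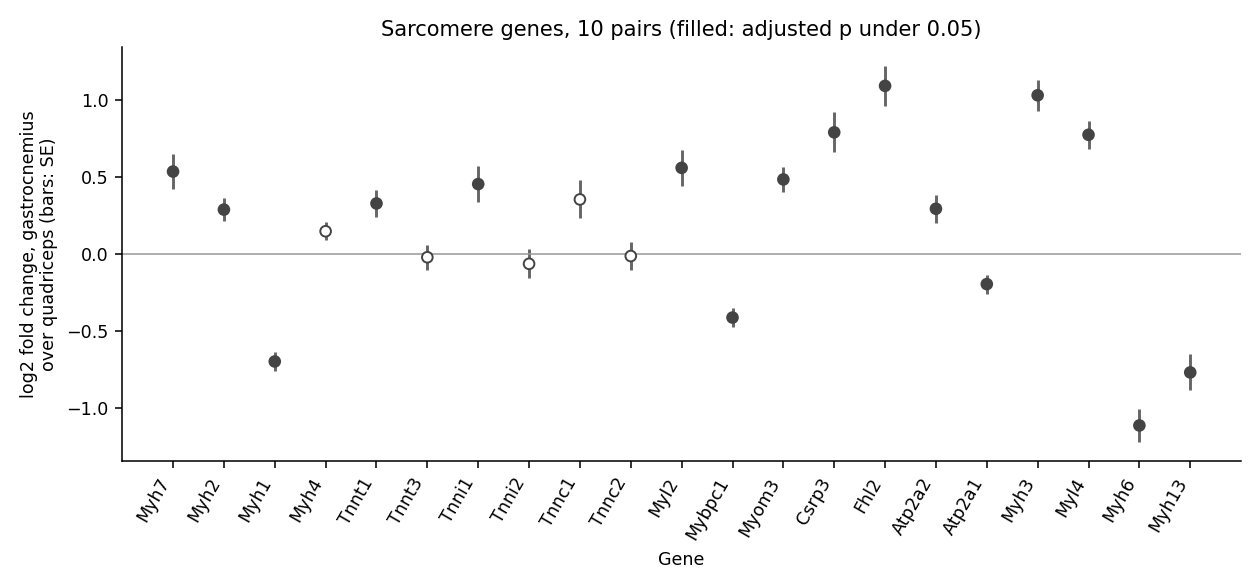
Log2 fold change of gastrocnemius over quadriceps with its standard error for 21 sarcomere genes over 10 pairs; filled points passed an adjusted p under 0.05. Slow partners such as Myh7, Tnnt1 and Tnni1 lie between 0.33 and 0.53, the fast partners Tnnt3, Tnni2 and Tnnc2 lie at 0 within their error, and Myh1, Myh6 and Myh13 lie below 0.

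Several secreted or metabolic proteins of muscle fibres also separated the muscles. Ostn, which encodes the muscle-secreted peptide musclin, had a lowest of 4.35, a median of 33.5 and a highest of 49.4 CPM in gastrocnemius, against 0.846, 8.12 and 14.0 CPM in quadriceps. Number 3.1 was the lowest of both muscles, and the ranges overlapped through that number alone; within pairs Ostn was higher in gastrocnemius in 10 of 10, by 2.09 ± 0.082 (SE, adjusted p = 1.20e-10), and by 2.08 without number 3.1. Car3, the carbonic anhydrase of slow and oxidative fibres, had a lowest of 811, a median of 1514 and a highest of 1992 CPM in gastrocnemius, against 377, 794 and 954 CPM in quadriceps. It rose by 1.0 ± 0.05 (SE, adjusted p = 2.77e-09) and was higher in 10 of 10 pairs, and the ranges overlapped because of number 3.1 in gastrocnemius. Dkk3, a secreted protein of the Dickkopf family, fell by 1.58 ± 0.10 (adjusted p = 1.50e-08), with a median of 27.7 CPM in gastrocnemius and 77.1 CPM in quadriceps.

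Respiratory and fat-burning genes were slightly lower in gastrocnemius. Of 46 nuclear genes of the respiratory chain, none was higher and 18 were lower, with a median log2 fold change of -0.19. Over all genes 9.79% were lower. Without number 2.2, 45 of 46 were lower, where the share of all genes called lower also rose, to 20.1%. Without number 3.1 there were 13 (background 8.52%), and without the pairing none passed (background 2.44%). Sdhb, the iron-sulphur subunit of complex II, fell by 0.32 ± 0.07 (SE, adjusted p = 0.00327) and Cox7a1, the muscle form of a complex IV subunit, by 0.48 ± 0.08 (adjusted p = 4.77e-04). Gastrocnemius 2.2 went against this, since its 537 and 329 CPM of these genes lay above every quadriceps library.

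The 13 protein genes of the mitochondrial genome followed the same direction, with 7 lower (background 9.79%), none higher and a median of -0.30. Without the pairing 4 were lower (background 2.44%). Without number 3.1, 10 were lower (background 8.52%), and without number 2.2, 10 were (background 20.1%). ND4, a complex I subunit, had a lowest of 7412, a median of 9167 and a highest of 9981 CPM in gastrocnemius, against 8985, 11875 and 19186 CPM in quadriceps. It fell by 0.41 ± 0.08 (SE, adjusted p = 0.00181) and CYTB, of complex III, by 0.35 ± 0.07 (adjusted p = 0.00293). The share of all counts from mitochondrial genes had a median of 11.0% in gastrocnemius and 13.1% in quadriceps, with highest values of 11.8% and 18.2%, and was lower in gastrocnemius in 10 of 10 pairs (exact paired permutation p = 0.00195, adjusted p = 0.00814). With this share as a covariate, where 3.45% of all genes were called lower, 5 of the 46 nuclear genes were called lower. None of the 13 mitochondrial genes was called, but the share is made of their own counts, so this fit cannot test them. The share itself follows the muscle, and its part in the result cannot be told apart.

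Fatty acid handling differed in the same direction: 20 of 27 tested genes were lower and none higher (background 9.79% and 11.8%), with a median of -0.19. Without number 2.2, 23 were lower (background 20.1%), and without number 3.1, 14 were (background 8.52%). With the mitochondrial share as a covariate 9 were lower (background 3.45%), and without the pairing 2 were (background 2.44%). Cpt2, the inner-membrane carnitine palmitoyltransferase that lets fatty acids into mitochondria, fell by 0.34 ± 0.04 (SE, adjusted p = 5.61e-05) and passed without the pairing too (adjusted p = 0.0216). Fabp3, the heart-type fatty acid carrier, fell by 0.49 ± 0.07 (adjusted p = 1.24e-04, 0.0582 without the pairing). Of 27 genes of glycolysis and glycogen use, 3 were higher and none lower, with a median of -0.012. The share higher was close to the 11.8% of all genes, and without number 2.2 the 4 higher and 5 lower were no more than the 20.7% and 20.1% of all genes.

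**Figure D5:**
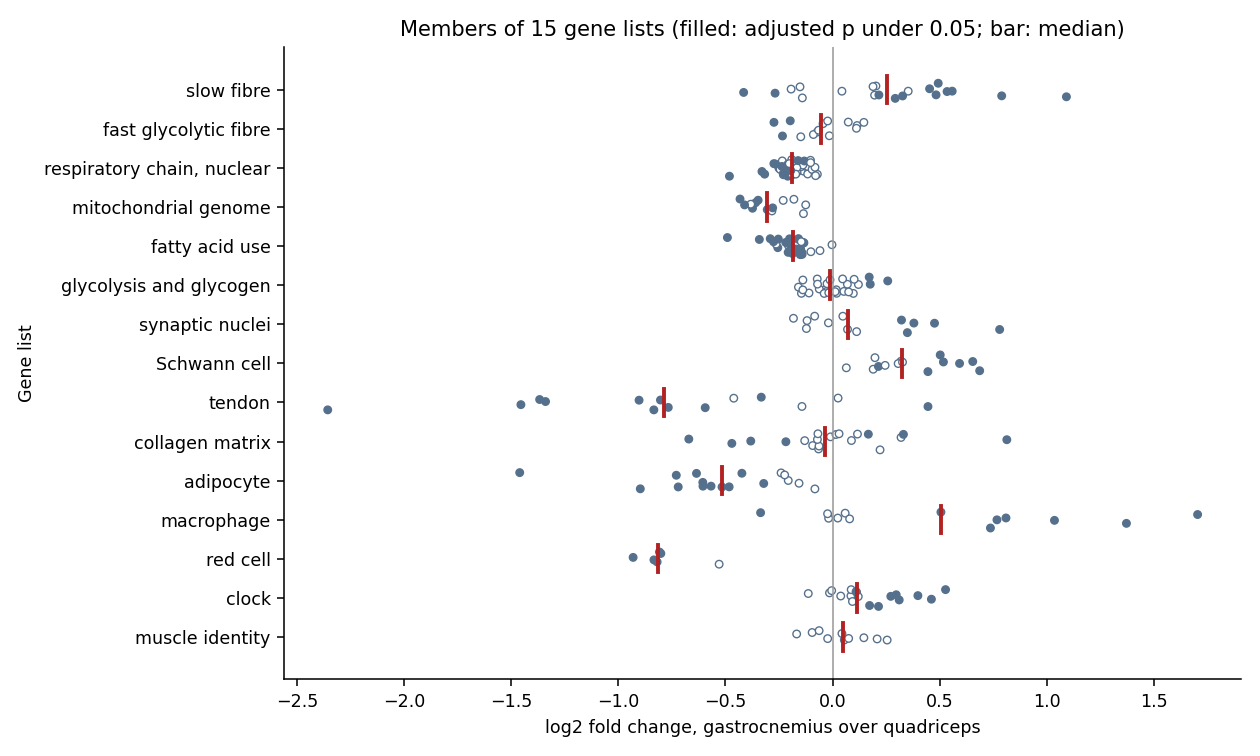
Each point is the log2 fold change of gastrocnemius over quadriceps of 1 tested gene, for 15 gene lists down the vertical axis; filled points passed an adjusted p under 0.05, red bars are list medians and the grey line is the median of all genes tested, 0.003. Tendon, adipocyte and red cell genes lie mostly left of the line and macrophage and Schwann cell genes mostly right of it, while muscle identity genes lie around it.

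Genes of the nerve-muscle contact were higher in gastrocnemius in part. Of 13 tested genes of the nuclei beneath the synapse, 5 were higher and none lower (background 11.8% and 9.79%). Without the pairing 2 were higher (background 4.01%), and without number 2.2 there were 5 higher and 2 lower, where 20.7% and 20.1% of all genes were. Musk, the receptor kinase that organises the synapse, had a lowest of 35.6, a median of 57.8 and a highest of 152 CPM in gastrocnemius, against 26.3, 31.7 and 128 CPM in quadriceps. It rose by 0.78 ± 0.079 (SE, adjusted p = 3.77e-06, 10 of 10 pairs), but number 3.1 reached the highest value of each muscle and the call was lost without the pairing (adjusted p = 0.176). Chrna1, the acetylcholine receptor alpha subunit, rose by 0.48 ± 0.056 (adjusted p = 2.09e-05) and kept its call without the pairing (adjusted p = 8.32e-04). Myog, a muscle differentiation factor induced by denervation, rose by 0.61 ± 0.12 (adjusted p = 0.00156, 0.327 without the pairing).

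Of 14 Schwann cell genes, which mark the myelin of nerve within the muscle, 7 were higher and none lower (background 11.8% and 9.79%), with a median of 0.32. Without the pairing 2 were higher (background 4.01%), and 1 with the mitochondrial share as a covariate, where 4.42% of all genes were called higher. Mbp, myelin basic protein, had a median of 31.8 CPM in gastrocnemius and 20.1 CPM in quadriceps and rose by 0.69 ± 0.12 (SE, adjusted p = 5.98e-04), and Drp2, of the Schwann cell membrane, rose by 0.59. The summed level of the 14 genes ran from 84.5 to 219.8 CPM in gastrocnemius and from 75.6 to 118.7 CPM in quadriceps. The part of this nerve tissue in the differences of synaptic genes was not tested.

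Tendon genes were lower in gastrocnemius. Of 14 tested, 10 were lower and 1, the tendon factor Scx, was higher (background 9.79% and 11.8%), with a median of -0.78. Without the pairing 5 were lower (background 2.44%). The 7 genes of the myotendinous junction, where fibre meets tendon, went the other way, with 4 higher (background 11.8%), none lower and a median of 0.23. Without number 3.1, 2 were higher (background 10.7%), and without the pairing 1 was (background 4.01%). Prg4, the lubricin of tendon and joint surfaces, had a lowest of 4.89, a median of 9.34 and a highest of 13.3 CPM in gastrocnemius, against 34.0, 50.3 and 73.3 CPM in quadriceps. The muscles were well separated, and Prg4 fell by 2.36 ± 0.14 (SE, adjusted p = 1.50e-08). Comp, a cartilage and tendon matrix protein, fell by 1.45 ± 0.10 (adjusted p = 3.56e-08), also without overlap.

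Cilp2 and Chad, matrix proteins of cartilage and tendon, fell by 1.37 and 1.34, and Fmod, a collagen-binding proteoglycan, by 0.90. The summed level of the 21 tendon and junction genes ran from 333 to 560 CPM in gastrocnemius and from 362 to 577 CPM in quadriceps, and gastrocnemius 3.2 was the highest of its muscle. General collagen matrix genes went in both directions: of 20 tested, 3 were higher and 4 lower (background 11.8% and 9.79%), with a median of -0.036. Without number 3.1, 2 were higher and 4 lower (background 10.7% and 8.52%). Without number 2.2, 6 were higher and 5 lower (background 20.7% and 20.1%). How much tendon was taken with each muscle is not stated, and tissue sampling and gene activity cannot be told apart here.

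Macrophage genes were higher in gastrocnemius, but unevenly. Of 13 tested, 7 were higher and 1, Cd163, was lower (background 11.8% and 9.79%), with a median of 0.51. Without the pairing 6 were higher (background 4.01%), and 3 with the mitochondrial share as a covariate (background 4.42%). Ctss, the lysosomal protease cathepsin S, had a lowest of 7.11, a median of 17.6 and a highest of 33.6 CPM in gastrocnemius, against 3.41, 4.85 and 7.38 CPM in quadriceps. The ranges overlapped slightly, and Ctss rose by 1.70 ± 0.15 (SE, adjusted p = 1.24e-06, higher in 10 of 10 pairs). Cd68, a lysosomal membrane protein of macrophages, Cx3cr1, a chemokine receptor, and Lyz2, lysozyme, rose by 1.04, 1.37 and 0.74.

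The complement subunits C1qa, C1qb and C1qc, the receptor gene Csf1r and the mannose receptor gene Mrc1, which resident macrophages express, had log2 fold changes between -0.02 and 0.08 and did not pass. The summed level of the 13 genes ran from 108 to 265 CPM in gastrocnemius and from 83.4 to 192 CPM in quadriceps. Among the largest rises overall were Lgals3, galectin-3, at 1.93, Mpeg1, the pore-forming perforin-2, at 1.89, and Spp1, osteopontin, at 2.04, all known from activated macrophages and, for Spp1, from bone. Lgals3 had a lowest of 5.26, a median of 14.3 and a highest of 23.9 CPM in gastrocnemius, against 2.87, 3.22 and 4.12 CPM in quadriceps, and every gastrocnemius library lay above every quadriceps library.

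Fat cell genes were lower in gastrocnemius. Of 17 tested, 12 were lower and none higher (background 9.79% and 11.8%), with a median of -0.52. Without the pairing 3 were lower (background 2.44%), and 4 with the mitochondrial share as a covariate (background 3.45%). Without number 3.1, 12 were lower (background 8.52%), and without number 2.2, 14 were (background 20.1%). Fasn, fatty acid synthase, had a lowest of 9.09, a median of 45.9 and a highest of 82.9 CPM in gastrocnemius, against 11.4, 107 and 126 CPM in quadriceps. Number 3.1 was the lowest of both muscles, and within pairs Fasn was lower in gastrocnemius in 10 of 10, by 0.90 ± 0.12 on the log2 scale (SE, adjusted p = 1.01e-04, 0.141 without the pairing). Scd1, stearoyl-CoA desaturase, fell by 0.73 and Cidea, a lipid droplet protein, by 1.46. Dgat2, which makes triglyceride, fell by 0.52 ± 0.07 (adjusted p = 1.01e-04).

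The summed adipocyte level ran from 242 to 681 CPM in gastrocnemius and from 358 to 945 CPM in quadriceps and was lower in gastrocnemius in 10 of 10 pairs. Globin and other red cell genes were lower too, 5 of 6 tested (background 9.79%). Without the pairing 2 were lower (background 2.44%), and none with the mitochondrial share as a covariate (background 3.45%). Their summed level was 27.6 to 109.7 CPM in gastrocnemius and 40.1 to 536 CPM in quadriceps, the highest being quadriceps 2.3. Of 18 circadian clock genes, 9 were higher and none lower in gastrocnemius (background 11.8% and 9.79%), with a median of 0.12, led by Dbp, a clock output factor, at 0.53. None of the 18 passed without the pairing. The time of day at which each tissue was taken is not stated.

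Libraries of 18-month mice, which the comparison above did not use, were then compared in the same way. With 9 sedentary pairs, 4529 of 14543 genes (31.1%) were called, and of the 3097 genes called at 10 months and tested there, 2432 (78.5%) were called again with the same sign. Without the pairing in either fit, 766 of 924 calls recurred. With 12 exercised pairs, 4870 of 14540 genes (33.5%) were called, and 2095 of 3092 10-month calls (67.8%) recurred with the same sign. Among 10-month calls of at least 1 log2, 169 of 172 recurred in the sedentary and 152 of 170 in the exercised libraries.

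For the positional genes, Hoxd10 differed by 2.86 ± 0.097 in sedentary and 2.31 ± 0.42 in exercised 18-month libraries (log2 fold changes, SE). Hoxa11 differed by 2.33 ± 0.13 and 2.12 ± 0.41, Hoxc8 by -1.88 ± 0.13 and -1.53 ± 0.27, and Tbx1 by -3.05 ± 0.088 and -2.89 ± 0.37. The standard errors of these genes were larger in the exercised libraries, although there were more pairs, and the cause was not tested. Myh1 stayed lower in gastrocnemius, by -0.78 ± 0.060 and -0.61 ± 0.17, and Ostn higher, by 1.86 ± 0.095 and 1.46 ± 0.27. Myh7 was higher in the sedentary libraries (0.60, adjusted p = 0.000141), and its log2 fold change of 0.30 in the exercised libraries did not pass (adjusted p = 0.109).

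Gene lists recurred unevenly, where 16.1% of all genes were higher and 15.1% lower in the sedentary 18-month libraries and 16.4% and 17.1% in the exercised ones. Adipocyte genes were lower in both, 16 in each, with medians of -1.44 and -1.03, against -0.52 at 10 months. Nuclear respiratory genes were also lower in both, 35 and 37 of them, and 7 macrophage genes were higher in each. Of the Schwann cell genes, 1 was higher and none lower in the sedentary libraries (median 0.089), and none was higher and 1 lower in the exercised ones (median -0.12). The 1 higher gene was Mbp, at 0.25 (adjusted p = 0.0145), and its log2 fold change of 0.18 in the exercised libraries did not pass (adjusted p = 0.359). Of the tendon genes, 11 were lower and none higher in the sedentary libraries, and in the exercised ones 5 were lower and 2 higher. Of the collagen matrix genes, 9 were lower and 1 higher in the sedentary libraries, and in the exercised ones none was lower and 6 were higher. Synaptic genes had 4 higher and none lower in the sedentary libraries, and 2 higher and 3 lower in the exercised ones. These differences between ages and treatments were not tested for the lists.

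No gene passed a test of the change in the muscle difference with age, or with age and exercise together. In 1 edgeR fit over all muscle libraries, 0 of 15433 genes were called for 18-month sedentary minus 10-month sedentary libraries and 479 had an unadjusted p under 0.05, with a lowest adjusted p of 0.671. A gene that did not pass is not shown to be unchanged. Fasn, fitted in each group alone, differed by -0.90 ± 0.12 (SE) at 10 months and -2.20 ± 0.20 in the 18-month sedentary libraries. Its difference of -1.30 in the fit over all muscle libraries did not pass (adjusted p = 0.849). For 18-month exercised minus 10-month sedentary libraries 0 were called, 1225 had an unadjusted p under 0.05, and the lowest adjusted p was 0.173. The smallest unadjusted p in that comparison was for Ttc9, a tetratricopeptide repeat protein, which was 0.81 ± 0.081 higher in gastrocnemius at 10 months (SE, adjusted p = 3.58e-06) and 0.039 in the exercised libraries (difference -0.77 ± 0.16, adjusted p = 0.173). Title numbers of 10-month and 18-month libraries do not overlap, so age and whatever the numbers mark cannot be told apart.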

How the data were processed

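Polyadenylated RNA of gastrocnemius and quadriceps was sequenced, 10 libraries of each muscle at 10 months, from TruSeq v2 libraries. Per the submitters' processing notes, the authors used STAR 2.5.2b and build GRCm38.p5. The authors deposited raw read counts for each Entrez gene as whole numbers, beside gene length and symbol. For the counting step, program, annotation and strand setting are not given in the sources used for this work, which limits values of overlapping and near-identical genes. The authors also deposited TPM, which were used for levels compared between genes and for shares of myosin. A deposited FPKM table was not used. Of 99 labelled samples, quadriceps 10.4 (18 months, sedentary) and quadriceps 10.2 (18 months, exercised) were not analysed here.

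Counts were tested with the edgeR 4.0.16 quasi-likelihood F test in R 4.3.3, with TMM factors, a filterByExpr filter (count of at least 10, total of at least 15), and the title number as a block. Calls have an adjusted p (Benjamini-Hochberg, all tested genes) under 0.05. Log2 fold changes are gastrocnemius over quadriceps, standard errors were taken from the F statistic, and levels are TMM-scaled CPM. Lowest, median and highest values are over 10 libraries. All tests are two-sided. Library measures were compared with exact paired permutation tests (scipy 1.17.1), adjusted over 25 measures. The fit was tested on simulated counts. Alternatives were DESeq2 1.42.0, limma 3.58.1 (voom), RLE factors, other filters, no block, a length slope, the mitochondrial share as covariate, all muscle libraries in 1 fit, and leaving out each number in turn.

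Named genes are the 12 largest called changes in each direction with mean log2 CPM of at least 1 and no predicted-gene symbol, in each list the 4 called members of smallest p, every called Hox gene, fixed sarcomere pairs, and the smallest p-values of the age tests. Members and gene lists were chosen with earlier results of these data known; 3 of 635 list symbols were not matched. 1 gene named by this rule is not reported here. Genes outside this rule (Eya4, Osr2, Alx4, Zic1, Scx, Cd163 and those in the other observations) were named after their values were seen. Total counts of 30.6 to 45.0 M per library set the precision of low genes.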

Additional observations from a re-analysis of the deposited data

Results flagged for a closer look

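In 64 of 188 sets of 10 libraries, each a measure in 1 muscle, the highest or the lowest library lay apart from the other 9 by more than Dixon's 95% limit. Chance gives about 1 in 20 for a normally distributed measure. The sets repeat the same libraries over many genes, so they are not independent. The excess over that rate was not tested. The largest numbers came from 3 libraries: 21 in quadriceps 3.1, 18 in gastrocnemius 2.2 and 12 in gastrocnemius 3.1.

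Gastrocnemius 3.1 stood apart from the other 9 libraries of its muscle in Hoxa10 at 15.52 CPM, Hoxa9 at 12.26 CPM, Hoxc6 at 10.96 CPM, Tbx4 at 5.242 CPM, Tbx15 at 172.6 CPM and Katnal2 at 1.345 CPM. It also stood apart in Myh2 at 822.3 CPM, Myh4 at 39944 CPM, Musk at 152 CPM, Myog at 11.03 CPM, Chad at 0.433 CPM and Myh7 at 0.4298% of the TPM of 4 adult myosins.

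Quadriceps 3.1 stood apart from the other 9 libraries of its muscle in Hoxa4 at 4.724 CPM, Hoxc6 at 15.07 CPM, Tbx1 at 73.96 CPM, Tbx15 at 196.4 CPM, Pitx3 at 6.557 CPM and Twist1 at 2.233 CPM. It also stood apart in Lrtm2 at 4.019 CPM, Car3 at 376.6 CPM, Myh2 at 466 CPM, Myh4 at 39892 CPM, Tnnc2 at 6319 CPM and Mybpc1 at 1098 CPM. It was likewise separate in Myom3 at 16.31 CPM, Cox7a1 at 130.4 CPM, Sdhb at 273.5 CPM, Cpt2 at 120.4 CPM, Musk at 128.1 CPM and Myog at 10.69 CPM. It was further apart from the rest in Dgat2 at 67.29 CPM, summed Schwann cell genes at 75.63 CPM and Myh2 at 1.052% of the TPM of 4 adult myosins.

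Gastrocnemius 2.2 stood apart from the other 9 libraries of its muscle in Hoxd9 at 29.99 CPM, Hoxd8 at 65.05 CPM, Hoxc9 at 10.18 CPM, Hoxc8 at 1.834 CPM, Hoxc5 at 2.625 CPM and Hoxa11os at 5.034 CPM. It also stood apart in Six2 at 24.99 CPM, Zbed6 at 2.661 CPM, Tnnt3 at 35283 CPM, Tnni2 at 17576 CPM, Tnnc2 at 19209 CPM and Myl4 at 14.67 CPM. It was likewise separate in Cox7a1 at 328.5 CPM, Sdhb at 537 CPM, Fabp3 at 423.2 CPM, Cidea at 1.043 CPM, mitochondrial share of counts at 7.153% and summed red cell genes at 109.7 CPM.

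Gastrocnemius 1.4 stood apart from the other 9 libraries of its muscle in Hoxa7 at 4.567 CPM. Quadriceps 1.4 stood apart from the other 9 libraries of its muscle in Hoxa7 at 5.902 CPM and Mpeg1 at 5.436 CPM. Quadriceps 3.2 stood apart from the other 9 libraries of its muscle in Hoxc10 at 134.7 CPM, ND4 at 19186 CPM, CYTB at 33589 CPM and mitochondrial share of counts at 18.24%. Quadriceps 2.1 stood apart from the other 9 libraries of its muscle in Mbp at 26.13 CPM. Gastrocnemius 3.2 stood apart from the other 9 libraries of its muscle in Spp1 at 26.29 CPM, Ttc9 at 17.86 CPM, summed tendon and junction genes at 559.6 CPM and Myh4 at 87.45% of the TPM of 4 adult myosins. Quadriceps 2.3 stood apart from the other 9 libraries of its muscle in summed red cell genes at 535.7 CPM.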

How the results depend on the processing

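Of the 78 called genes looked at one by one, 51 kept their call under each alternative that tested them (20, or 19 for the 4 genes not tested at a mean CPM of at least 1) and 74 in each fit that left out 1 number; none changed sign. Titles do not say what a shared number marks. Same-number libraries deviated together across genes with correlations of 0.0955 (number 3.2) to 0.903 (number 3.1), a median of 0.302 against 0.0667 for different numbers, 9 of 10 over 0.1, and 6 of 10 numbers matched their own partner best. Since number 3.2 stayed under 0.1, the data do not settle that the numbers mark pairs, and the block follows the planned design. Without the block for this pairing the calls were 928 (577 higher, 351 lower), and 766 calls recurred at 18 months. Leaving out 1 number gave 2372 to 5859 calls, 1324 to 2973 higher and 1029 to 2886 lower, the highest being without 2.2; without 3.1 and 2.2 there were 5830 (3040 and 2790). With the mitochondrial share as covariate there were 1131 (635 and 496). Calls of at least 1 log2 numbered 401 with no filter on low counts, 98 at a mean CPM of at least 1 and 294 with all muscle libraries in 1 fit. DESeq2 called 3109 genes, limma-voom 3161 and RLE factors 3153. Called Hox genes numbered 12 to 20. The 12 came with the mitochondrial share as covariate, where 1131 genes were called in all. The 20 came with a length slope, where 3444 genes were called in all. Fast troponins, not called with all 10 pairs, changed sign. Tnnt3 ranged from -0.0948 to 0.0307 when 1 number was left out, and was 0.0928 with a length slope and 0.0142 with the mitochondrial share. Tnni2 was 0.0869 with a length slope and was called lower without 2.2 (-0.159, adjusted p = 0.032) and without 3.1 and 2.2 (-0.17, adjusted p = 0.0309). Tnnc2 ranged from -0.11 to 0.0149, and was 0.0312 without the block and 0.139 with a length slope, where it was called (adjusted p = 0.0179). The causes were not tested. Depth limits the precision of genes under 1 CPM.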

Other observations

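Several low-abundance genes outside the naming rule had log2 fold changes as large as those of Tbx1 and the Hox genes; they were chosen after their values were seen. Pax3, the transcription factor of migrating limb muscle progenitors, had a median of 0.160 CPM in gastrocnemius and 1.25 CPM in quadriceps, did not overlap between the muscles and fell in gastrocnemius (log2 fold change -2.99 ± 0.23, SE; adjusted p = 2.26e-07). Its log2 fold change was -2.84 and -2.56 in the 18-month sedentary and exercised libraries. Clec3a, a cartilage lectin, had a median of 0.170 CPM in gastrocnemius and 1.68 CPM in quadriceps and a log2 fold change of -3.25 ± 0.25 (adjusted p = 1.90e-07). Pappa2, a protease of insulin-like growth factor binding proteins, had a median of 0.112 CPM in gastrocnemius and 1.14 CPM in quadriceps and a log2 fold change of -3.19 ± 0.19 (adjusted p = 1.50e-08). Each of these 3 genes was lower in gastrocnemius in 10 of 10 pairs.

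In the other direction, Mt3, a metallothionein, had a median of 3.01 CPM in gastrocnemius and 0.599 CPM in quadriceps, without overlap, and a log2 fold change of 2.33 ± 0.12 (adjusted p = 2.00e-09). Trem2, a lipid-sensing receptor of macrophages, had a median of 1.99 CPM in gastrocnemius and 0.406 CPM in quadriceps and a log2 fold change of 2.22 ± 0.29 (adjusted p = 5.35e-05), with 2.32 and 1.33 in the 18-month sedentary and exercised libraries. Both were higher in gastrocnemius in 10 of 10 pairs.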
